A study of Canis lupus familiaris with 22 samples.

Results

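The genes CCL2, CCL8, CCL17, CXCL8 and CXCL10 encode chemokines, and their transcripts were measured in malignant mammary tumours, benign mammary tumours and healthy mammary tissue of dogs (Canis lupus familiaris). They were found by the canine RefSeq transcripts that the probes of the Agilent canine array target, and every probe of these transcripts was kept. This gave 5 genes of the 1458 that carried a symbol here and 9 of the 2353 probes with a symbol, with 1 probe each for CCL2, CCL8 and CCL17, 4 probes for CXCL8 and 2 probes for CXCL10. The tumours were resected from dogs with mammary gland tumours, and the healthy tissue came from other dogs. The labels give neither age nor treatment, and the diagnosis groups pool tumours of different histology. The labels name 6 malignant tumours, 3 benign tumours and 2 healthy glands, each hybridized to a pair of arrays, and scanner values were analysed for 19 of the 22 arrays, from 5 malignant tumours, 3 benign tumours and 2 healthy glands. A tissue is a number in the labels, and its arrays were averaged, so that n counts tissues.

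Chemokines are small secreted proteins that guide the migration of leukocytes along a concentration gradient, and they act through G protein-coupled receptors on the cells that they attract. The CC and CXC families are named for the spacing of conserved cysteines. CCL2 and CCL8 (monocyte chemoattractant proteins) attract monocytes and other leukocytes, CCL17 attracts T cells that carry CCR4, CXCL8 (interleukin 8) attracts neutrophils through CXCR1 and CXCR2, and CXCL10 is induced by interferons and attracts T cells and natural killer cells through CXCR3. In mammary tumours, chemokines are made by tumour cells and by stromal and immune cells. In the RefSeq table of dog genes, CCL2 and CCL8 lie on 1 chromosome with CCL7 as the only protein-coding gene between them, CCL13 lies on the other side of CCL8, and the other members lie on other chromosomes. Probe sequences were not analysed here, so cross-hybridization between CCL2, CCL7, CCL8 and CCL13 was not tested.

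The level of a probe is the log2 of its background-subtracted signal minus the 75th percentile of its array, so that 0 is the level of a probe at this percentile, and levels are compared only within a probe. The 75th percentile of the signal was 299.5 to 1638 units on the malignant arrays, 1048 to 1632 on the benign arrays and 360.3 to 682.6 on the healthy arrays, and 62.2% to 83.2% of the probes were well above background. Healthy arrays were dimmer than every benign array. The arrays of a tissue had a correlation of 0.982 to 0.99 over all probes, and probes are not replicates. The healthy glands stood apart in genes of another organ. All 5 genes of the exocrine pancreas list that carried a symbol (of 15 listed) were lower in all tumours (limma, adjusted p from 1.5e-05 for CLPS and CPB1 to 0.000292 for PNLIPRP1), and their summed level, the log2 of the summed linear levels, was 11.95 and 10.02 in the healthy glands and -0.69 to 1.24 in the tumours. Of the 5 islet genes, 4 were called lower in tumours, with a summed level of 9.62 and 4.81 in healthy glands and -2.29 to 2.29 in tumours. Of the 6 mammary epithelium genes, KRT14, KRT19 and CDH1 had levels of 2.695 to 5.19 in the healthy glands. ERBB2 and PGR had levels of -0.50 to 0.78 there, and ESR1 had -6.52 and -3.41. The summed level of the 6 genes was 5.08 and 6.33 in the healthy glands and 1.755 to 8.451 in the tumours. Which tissue gave these levels was not tested. Every comparison with healthy tissue rests on these 2 glands, and the part of the pancreas genes in the results was not tested.

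In 4 of the 5 chemokines, every tumour with scanner values had a higher level than either healthy gland, as in 2.72% of all probes. The 4 were CCL2, CCL8, CCL17 and CXCL8, and not CXCL10. Malignant tumour 6, without scanner values, had CXCL8 below healthy gland 2 in signals without background subtraction (-1.22 against -0.89). The mean differences between tumours and healthy tissue in these 4 genes were 3.46 to 4.00 on the log2 scale, or up to 16.0-fold in CXCL8. The value of CCL17, which was near background in healthy gland 1, was 3.49 and fell to 1.09 with the normexp background correction and to 2.01 without healthy gland 1. None of the 5 passed the test across all probes in any comparison (limma with Benjamini-Hochberg adjustment over 35310 probes, adjusted p of 0.156 or more). In all 5 genes the benign tumours had the highest mean, the malignant tumours the middle one and the healthy glands the lowest, although leaving out 1 tissue turned the order of malignant and healthy means in CXCL10 and of malignant and benign means in CCL17. The levels of the malignant and benign tumours overlapped in each gene. In bulk tissue, more cells that express a gene and more RNA per cell cannot be told apart.

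**Figure D1:**
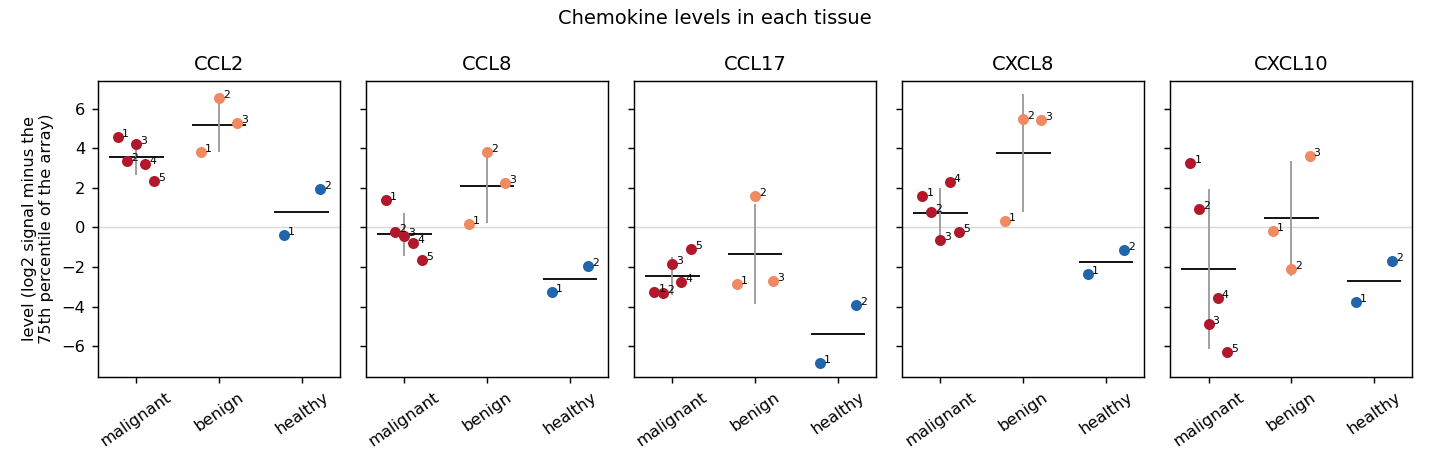
Level of CCL2, CCL8, CCL17, CXCL8 and CXCL10 (brightest probe) in each tissue, as log2 signal minus the 75th percentile of the array. Points are tissues with their number, horizontal bars are group means and grey lines span 1 SD for malignant (n = 5) and benign (n = 3) tumours. All 8 tumours lie above both healthy glands in every panel except CXCL10.

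CCL2, the chief chemoattractant of monocytes, was well above background on all 19 arrays. Its level was 4.58, 3.35, 4.21, 3.22 and 2.35 in malignant tumours 1 to 5, and 3.78, 6.51 and 5.26 in benign tumours 1 to 3. In healthy glands 1 and 2 it was -0.37 and 1.92. All tumours were above both glands, with a gap of 0.44 between malignant tumour 5 and healthy gland 2, and the healthy glands differed from each other by 2.29. The arrays of a tissue differed by at most 0.58. The mean was 3.54 ± 0.877 (SD, n = 5) in malignant tumours, 5.18 ± 1.36 (SD, n = 3) in benign tumours and 0.77 ± 1.62 (SD, n = 2) in healthy tissue. The log2 fold change was 2.77 (adjusted p = 0.592 by limma, standard error 0.869) for malignant against healthy tissue and 4.41 (adjusted p = 0.156 by limma, standard error 0.949) for benign against healthy tissue, or 6.8-fold and 21.3-fold. Malignant tumours were 1.65 below benign tumours (95% interval of the log2 fold change -3.32 to 0.03, unadjusted p = 0.0537 by limma). CCL2 was the highest in benign tumour 2, and its level in benign tumour 1 lay within the range of the malignant tumours.

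CCL8, which attracts monocytes and lymphocytes, was also well above background on all 19 arrays. Its level was 1.37, -0.25, -0.42, -0.81 and -1.65 in malignant tumours 1 to 5, and 0.17, 3.83 and 2.22 in benign tumours 1 to 3. It was -3.26 and -1.93 in healthy glands 1 and 2. The tumours did not overlap with the healthy glands, but malignant tumour 5 was only 0.28 above healthy gland 2, less than the largest difference of 0.37 between the arrays of a tissue. The log2 fold change was 2.24 (adjusted p = 0.845 by limma, standard error 0.978) in malignant and 4.67 (adjusted p = 0.217 by limma, standard error 1.07) in benign tumours against healthy tissue. Malignant tumours were 2.43 below benign tumours, or 5.37-fold lower (95% interval of the log2 fold change -4.31 to -0.54, unadjusted p = 0.0165 and adjusted p = 1.0 by limma, exact permutation p = 0.0714). Malignant tumours 2 to 5 were below all benign tumours, and malignant tumour 1 was above benign tumour 1.

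CCL17, a ligand of CCR4, was well above background on 17 of 19 arrays, including 2 of the 4 healthy arrays. Healthy gland 1 was not well above background in this gene. The level was -3.29, -3.31, -1.82, -2.77 and -1.09 in malignant tumours 1 to 5, and -2.87, 1.59 and -2.72 in benign tumours 1 to 3. It was -6.86 and -3.90 in the healthy glands. Benign tumour 2 stood 2.68 above the next tissue, malignant tumour 5, and the other 2 benign tumours lay among the malignant ones. The log2 fold change was 2.93 (adjusted p = 0.842 by limma, standard error 1.23) in malignant and 4.05 (adjusted p = 0.589 by limma, standard error 1.34) in benign tumours against healthy tissue. These values depended on how the background was taken off. With the normexp correction they were 0.67 and 1.51, and the tumours no longer all lay above both glands. In the signals without background subtraction they were 0.98 and 1.93, and the range over the tissues shrank from 8.46 to 4.78.

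CXCL8, the main neutrophil chemoattractant, had a brightest probe that was well above background on all 19 arrays. Its level was 1.58, 0.76, -0.66, 2.30 and -0.25 in malignant tumours 1 to 5, and 0.32, 5.47 and 5.44 in benign tumours 1 to 3. It was -2.37 and -1.15 in healthy glands 1 and 2. Benign tumours 2 and 3 were at least 3.15 above every other tissue, while benign tumour 1 was below malignant tumours 1, 2 and 4. The mean was 0.75 ± 1.23 (SD, n = 5) in malignant tumours, 3.74 ± 2.97 (SD, n = 3) in benign tumours and -1.76 ± 0.859 (SD, n = 2) in healthy tissue. The log2 fold change was 2.51 (adjusted p = 0.895 by limma, standard error 1.32) in malignant and 5.50 (adjusted p = 0.358 by limma, standard error 1.44) in benign tumours, which is 5.68-fold and 45.3-fold. Malignant tumours were 7.98-fold lower than benign tumours (95% interval of the log2 fold change -5.54 to -0.46, unadjusted p = 0.025 and adjusted p = 1.0 by limma, exact permutation p = 0.143).

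The other probes of CXCL8 gave the same order of the group means. Across the 10 tissues the 4 probes correlated at 0.966 to 0.996, as a description of probes of 1 transcript. The log2 fold change of malignant against healthy tissue was 1.74 to 3.51 over the 4 probes, and that of benign against healthy tissue was 4.53 to 6.33. Probes 3 and 4 were well above background on 2 of the 4 healthy arrays. With each of the 4 probes, every tumour with scanner values was above both healthy glands.

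**Figure D2:**
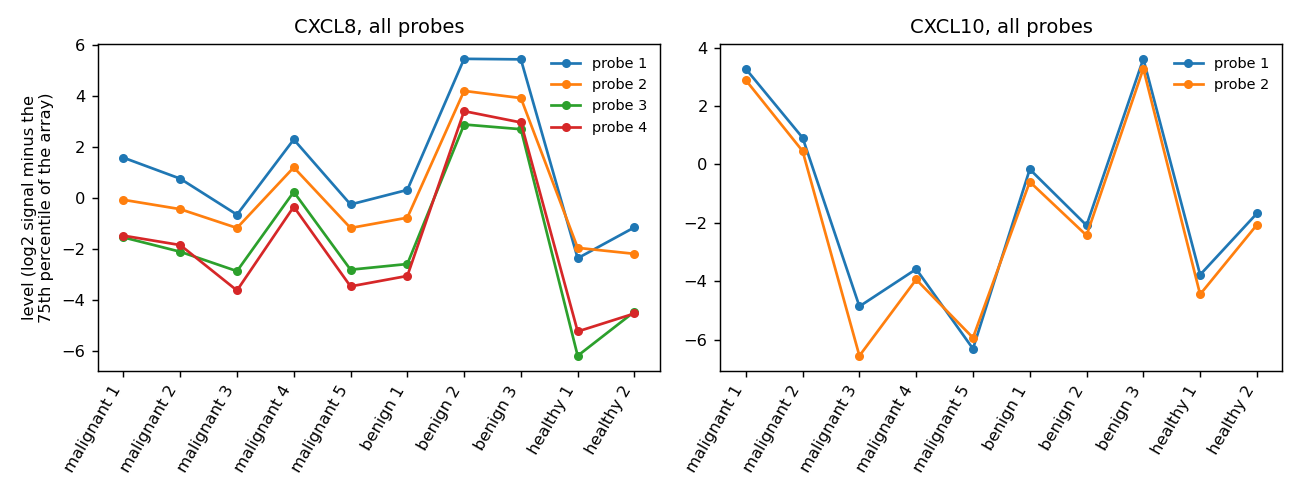
Level of the 4 CXCL8 probes (left) and the 2 CXCL10 probes (right) in each tissue, as log2 signal minus the 75th percentile of the array, with each line 1 probe. The probes of a gene run in parallel, with correlations of 0.966 to 0.996 for CXCL8 and 0.989 for CXCL10.

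CXCL10, the interferon-induced ligand of CXCR3, varied most within the tumours and did not separate them from healthy tissue. Its level was 3.27, 0.91, -4.86, -3.58 and -6.31 in malignant tumours 1 to 5, and -0.17, -2.09 and 3.61 in benign tumours 1 to 3. In healthy glands 1 and 2 it was -3.78 and -1.68. Malignant tumours 3 and 5 were below both healthy glands and were not well above background, and 4 of the 8 tumours, malignant 1 and 2 and benign 1 and 3, were above both glands. The span of the malignant tumours was 9.58 on the log2 scale, with a low end below background, compared with 2.22 to 3.02 in the other 4 chemokines. In the table of signals without background subtraction, the malignant tumours with scanner values lay between -3.33 and 3.32, and the range of CXCL10 over the tissues was 7.00 instead of 9.92. The log2 fold change was 0.61 (adjusted p = 0.995 by limma, standard error 2.38) in malignant and 3.18 (adjusted p = 0.88 by limma, standard error 2.60) in benign tumours against healthy tissue. The interval for malignant tumours ran from -4.65 to 5.87, so these data do not fix its direction. Without malignant tumour 1 the value was -0.73, without malignant tumour 2 it was -0.14 and without healthy gland 1 it was -0.44.

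Malignant tumours were compared with healthy tissue to ask which transcripts differ in malignant disease. None of the 5 chemokines was called by limma at the adjusted threshold of 0.05 (0 of 5), where 0.416% of all probes were called. All 147 of these probes were lower in malignant tumours, and 0 of 35310 probes were called higher. At an unadjusted p of at most 0.05, CCL2, CCL8 and CCL17 were higher in malignant tumours, which is 3 of 5 genes and 4 of 9 probes, where 2.25% of all probes were. All malignant tumours were above both glands in 4 of 5 genes and 7 of 9 probes, where 4.26% of all probes were. The median log2 fold change of the 5 genes was 2.51 and that of all probes tested was 0.07. An exact permutation test of 5 against 2 tissues cannot give a p below 0.0952, and this value was reached by CCL2, CCL8, CCL17 and CXCL8. Without healthy gland 1, the log2 fold change was 1.62 for CCL2 and 1.45 for CCL17, and with the normexp correction that of CCL8 was 1.31.

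For benign tumours against healthy tissue, 0 of the 5 genes were called at an adjusted p of at most 0.05 by limma, where 0.379% of all probes were. At an unadjusted p of at most 0.05, CCL2, CCL8, CCL17 and CXCL8 were higher, that is 4 of 5 genes and 7 of 9 probes against 3.13% of all probes. These 4 genes had all benign tumours above both glands, where 12.4% of all probes did. The median log2 fold change was 4.41 over the 5 genes and 0.03 over all probes. The design of 3 against 2 tissues cannot give an exact permutation p below 0.2. CXCL8 was called without benign tumour 1 (log2 fold change 7.21, adjusted p = 0.0101 by limma). In that fit 36 of 35310 probes were called higher, against 1 with every tissue. CCL2 was at 5.55 without healthy gland 2 and at 3.27 without healthy gland 1, where CCL17 was at 2.57. A fit with a single remaining gland assumes that it varies like the other groups, so no p is given.

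The comparison of all tumours with healthy tissue, which weighed the malignant and benign means equally, gave log2 fold changes of 3.59 for CCL2 (standard error 0.827), 3.46 for CCL8, 3.49 for CCL17, 4.00 for CXCL8 and 1.90 for CXCL10. The adjusted p was 0.183 for CCL2 and 0.32 to 0.923 for the others (limma with Benjamini-Hochberg adjustment), and 0 of 5 genes were called where 0.442% of all probes were. At an unadjusted p of at most 0.05, 4 of 5 genes were higher in tumours by limma, where 3.01% of all probes were. The same 4 genes had all 8 tumours above both glands, where 2.72% of all probes did, and each had the smallest exact permutation p that 8 against 2 tissues allow, 0.0444. CXCL8 was called without benign tumour 1 (adjusted p = 0.0285 by limma), where 43 of 35310 probes were called higher, against 1 with every tissue. CCL2 was at 4.73 without healthy gland 2 and at 2.45 without healthy gland 1. The comparisons with healthy tissue share the same 2 glands and are not independent.

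Malignant and benign tumours were compared to ask what separates the diagnoses. Here 0 of 5 genes were called by limma at an adjusted p of at most 0.05, as were 0.0% of all probes, and every adjusted p of the 5 genes was 1.0. At an unadjusted p of at most 0.05, CCL8 and CXCL8 were lower in malignant tumours (2 of 5 genes), where 1.14% of all probes were. The difference was -1.12 for CCL17 (95% interval -3.49 to 1.26) and -2.57 for CXCL10 (95% interval -7.16 to 2.02). The size of the differences moved with single benign tumours. Without benign tumour 2, the log2 fold change was -0.98 for CCL2, -1.55 for CCL8, 0.35 for CCL17, -2.13 for CXCL8 and -3.84 for CXCL10. Without benign tumour 3, it was -2.15 for CXCL8 and -0.99 for CXCL10. The value of CXCL10 was -1.16 with the normexp correction and -1.47 in the table of signals.

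**Figure D3:**
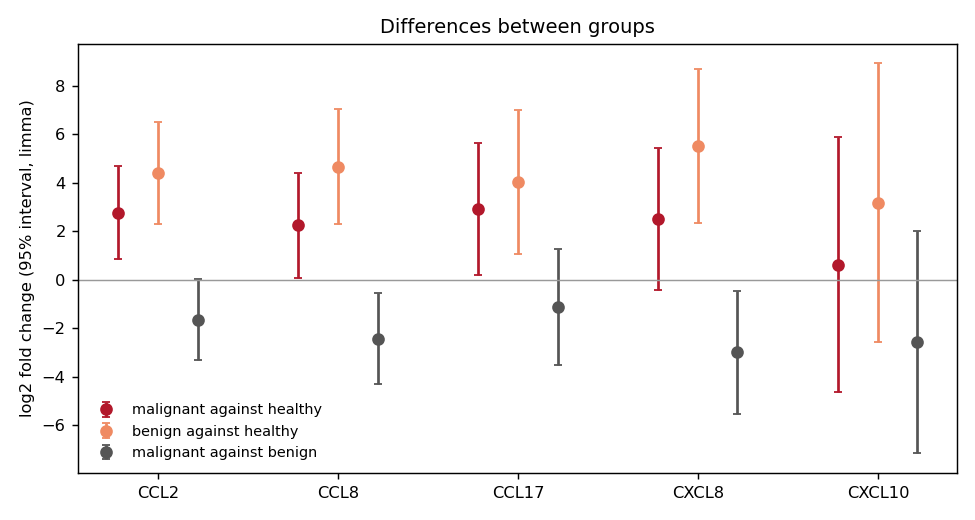
Log2 fold change of each chemokine between groups, with 95% intervals from limma, not adjusted for the number of probes. Points are malignant against healthy, benign against healthy and malignant against benign tissue (5, 3 and 2 tissues). The intervals of CCL2, CCL8 and CCL17 against healthy tissue lie above 0 in both tumour groups, that of CXCL8 does so only in benign tumours, and all 3 intervals of CXCL10 include 0.

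The healthy arrays lay on slides that also held tumour arrays, so the differences were taken within slides as well. Over the 3 slides that held both, tumours exceeded healthy tissue by 2.08 to 4.34 in CCL2, 2.44 to 3.89 in CCL8, 1.02 to 3.48 in CCL17, 2.59 to 3.95 in CXCL8 and 1.66 to 5.70 in CXCL10. These slides held malignant tumours 1, 2 and 4 and benign tumours 1 and 3, which include all tumours with CXCL10 above both glands, and not malignant tumours 3 and 5 or benign tumour 2. The within-slide values of all 5 genes thus cover only part of the tumours. They leave out malignant tumour 3, the lowest tumour in CXCL8, and malignant tumour 5, the lowest in CCL2 and CCL8. In CXCL10, on 1 of the 3 slides not every tumour was above the healthy gland. For malignant against healthy tissue alone, CXCL10 ranged from -1.82 to 6.10 between slides. Malignant tumour 5, which had the lowest CCL2, CCL8 and CXCL10 of the tumours, had 1 array with scanner values, alone on its slide and scanner.

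The table of signals without background subtraction also held malignant tumour 6 and the second array of malignant tumour 5. On its scale, malignant tumour 6 had a CCL2 level of 4.56, in place 4 of the 11 tissues, and a CCL17 level of -1.11, in place 3. Its CCL8 level was -0.62 and its CXCL10 level -1.91, both in place 7. Its CXCL8 level of -1.22 was in place 10, below healthy gland 2 at -0.89. With this tumour, the number of chemokines with every tumour above both glands was 3 of 5 instead of 4 of 5, and in CCL17 the gap between the lowest tumour and healthy gland 2 was 0.02 in this table.

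The chemokines were next compared with each other over the 10 tissues. Since 4 of them had both healthy glands at the bottom and benign tumour 2 at the top, as given above, the p-values over the 10 tissues are no evidence beyond that shared order of the extremes, and the values in the tumours alone stand beside them. Correlations were computed for all 10 pairs, with permutation p-values adjusted over the pairs, and 5 pairs had an adjusted p of at most 0.05, against 1 pair in the 8 tumours alone. CCL2 and CCL8 were the most closely related (Pearson r = 0.959, permutation p = 6e-05, adjusted p = 0.0006, Spearman rho = 0.964, permutation p = 5e-05). The relation was r = 0.949 without benign tumour 2 and healthy gland 1, the tissues farthest from the median of CCL2. In the 8 tumours alone it was r = 0.97 (permutation p = 0.000223, adjusted p = 0.00223). Their order over the tumours differed in few places, with benign tumours 2 and 3 and malignant tumour 1 at the top and malignant tumours 4 and 5 at the bottom in both genes.

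CXCL8 followed CCL8 (r = 0.901, permutation p = 0.0005, adjusted p = 0.0025, rho = 0.842, permutation p = 0.00393) and CCL2 (r = 0.843, permutation p = 0.00179, adjusted p = 0.00597, rho = 0.782, permutation p = 0.0107). Without the 2 tissues farthest from the median, r was 0.792 and 0.702. In the tumours alone it was 0.844 (permutation, adjusted p = 0.0502) and 0.778 (permutation, adjusted p = 0.074), past the threshold in neither.

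The relations of CCL17 rested on benign tumour 2 and healthy gland 1. Its r was 0.79 with CCL2 (permutation p = 0.0129, adjusted p = 0.0322, rho = 0.6, permutation p = 0.0744) and 0.709 with CCL8 (permutation p = 0.024, adjusted p = 0.048, rho = 0.503, permutation p = 0.145). Without these 2 tissues, r was 0.01 and -0.16. CXCL10 had r of -0.12 with CCL17, 0.439 with CCL2, 0.483 with CXCL8 and 0.541 with CCL8 (permutation, adjusted p of 0.151 to 0.745). Without benign tumour 2 and healthy gland 1, r of CXCL10 was 0.811 with CCL8 (exact permutation p = 0.0147), 0.625 with CCL2 and -0.65 with CCL17, and without benign tumour 2 alone the pair with CCL8 passed (r = 0.774, permutation, adjusted p = 0.0473). The pair of CCL17 and CXCL8 had r of 0.631 (permutation, adjusted p = 0.0829). Malignant tumour 5 had the lowest CXCL10 of all tissues and the second highest CCL17, and benign tumour 3 had the highest CXCL10 and was in place 4 in CCL17.

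**Figure D4:**
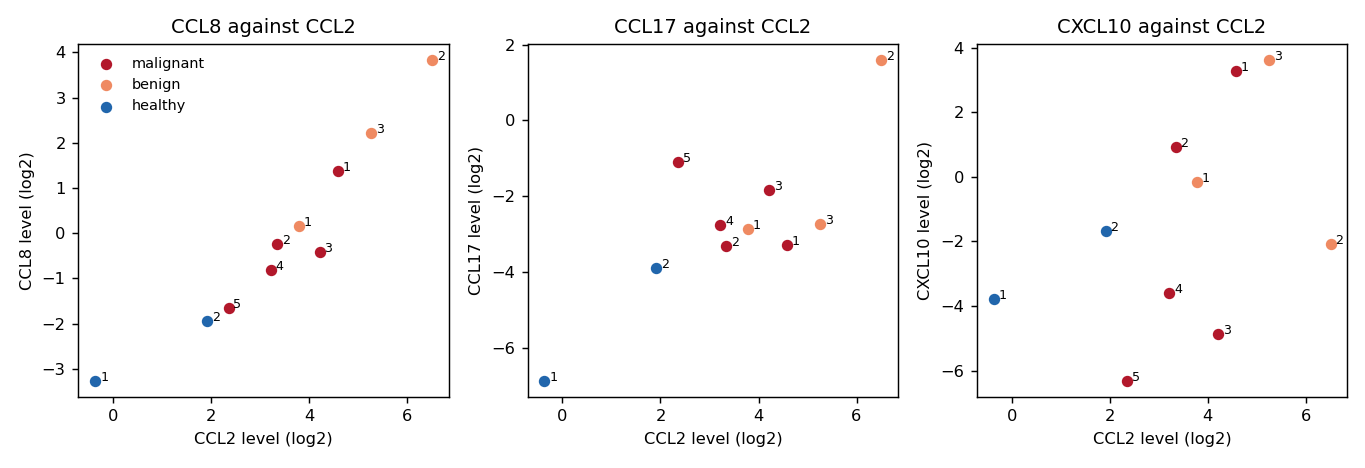
Level of CCL8, CCL17 and CXCL10 against the level of CCL2 in the 10 tissues, each as log2 signal minus the 75th percentile of the array, with the number of the tissue beside each point. CCL8 rises with CCL2 across all tissues (r = 0.959), CCL17 does so mainly through benign tumour 2 and healthy gland 1 (r = 0.79), and CXCL10 is scattered (r = 0.439).

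Among 1321 genes with a symbol, those with the most similar pattern over the 10 tissues were named by Pearson r, as a description without a test. CCL2 was most like CCL8, PMAIP1 (r = 0.935), which encodes a BH3-only protein of apoptosis, and SULF2 (r = 0.922), an extracellular sulfatase. CCL8 had the same partners, with r = 0.956 for PMAIP1 and 0.925 for SULF2. CXCL8 was most like PMAIP1 (r = 0.919), CCL8 and the adenosine receptor gene ADORA2B (r = 0.9). CCL17 was most like ZBTB1 (r = 0.908), TIMP1 (r = 0.887), an inhibitor of metalloproteinases, and DIO3 (r = 0.857), a deiodinase of thyroid hormone. CXCL10 was most like BIRC3 (r = 0.947), an inhibitor of apoptosis in NF-kappaB signalling, TAP2 (r = 0.915), a peptide transporter of antigen presentation, and SELE (r = 0.904), the endothelial adhesion molecule E-selectin. In the tumours alone, r was 0.991 for CCL2 and SULF2 and 0.947 for CXCL10 and both BIRC3 and TAP2.

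Of 12 receptors and binding proteins of these chemokines that are reported here, 6 carried a symbol here, and limma called 0 of them in any comparison. CCR1, a receptor of inflammatory CC chemokines, was the only one with all tumours above both glands (1 of 6, where 2.72% of all probes were). Its level was -5.47 to -3.62 in malignant and -4.85 to -4.32 in benign tumours, and -6.20 and -7.02 in healthy glands, with a log2 fold change of 1.94 for all tumours (standard error 0.53, unadjusted p = 0.00393, adjusted p = 0.334 by limma). Its probe passed the background mark on 11 of the 19 arrays, of which 1 was a healthy array. It entered the test through tumour arrays, so the separation is no support for a difference. CCR4, the receptor of CCL17, overlapped between the groups, with a difference of -0.42 on the log2 scale (standard error 0.62) for all tumours.

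CXCR2, a receptor of CXCL8 on neutrophils, had levels of -6.80 to -4.18 in malignant tumours, -4.98, -3.19 and -2.21 in benign tumours, and -5.91 and -4.85 in healthy glands. Benign tumours 2 and 3, which had the highest CXCL8, also had the highest CXCR2. For CXCR3, the receptor of CXCL10, the log2 fold change in all tumours was -1.05 with a standard error of 0.661. The value was 0.75 for CCR3 (unadjusted p = 0.235) and -0.93 for the scavenging receptor ACKR3 (unadjusted p = 0.443, limma). The median log2 fold change of the 6 receptors in all tumours against healthy tissue was 0.17, beside 0.06 over all probes.

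**Figure D5:**
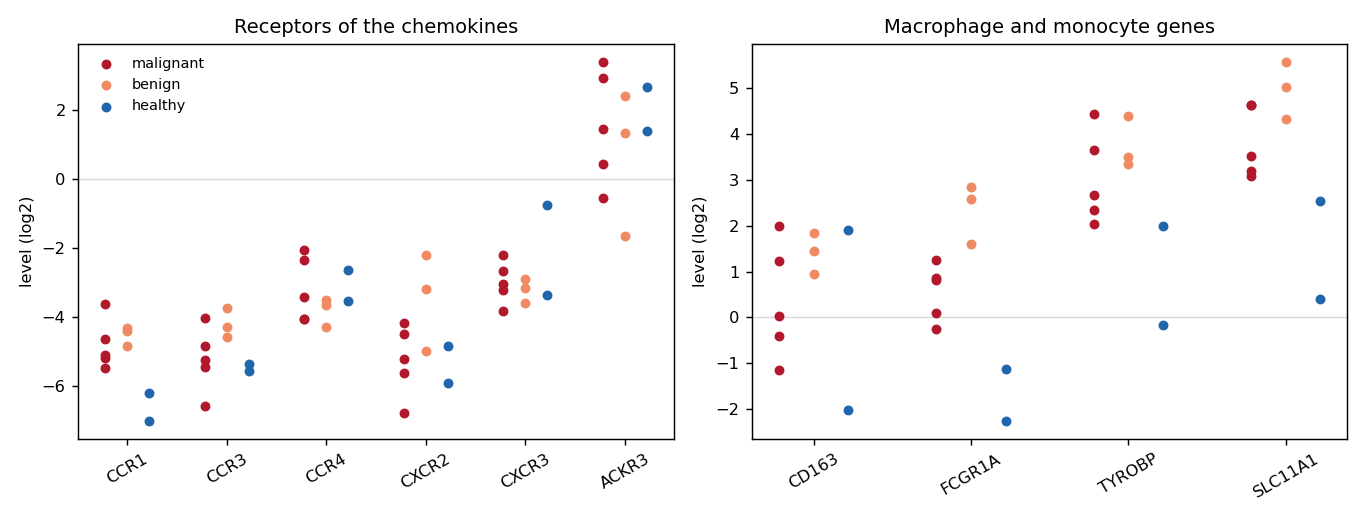
Level of 6 receptors (left) and of the 4 macrophage and monocyte genes with a symbol (right) in malignant (n = 5), benign (n = 3) and healthy (n = 2) tissues, as log2 signal minus the 75th percentile of the array. Points are tissues. CCR1 is the only receptor with all tumours above both glands, as are FCGR1A, TYROBP and SLC11A1 among the macrophage genes (2.72% of all probes). CCR1 was well above background on 1 healthy array.

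Of the other chemokines, 16 of 35 carried a symbol and all were tested. None was called by limma, 0 of 16 had an unadjusted p of at most 0.05 as higher or lower in all tumours, and their median log2 fold change was 0.30. The largest differences were -3.88 for CCL21 (unadjusted p = 0.0707), which guides T cells and dendritic cells to lymphoid tissue, 2.74 for CCL3 (unadjusted p = 0.057) and 2.11 for CCL13 (unadjusted p = 0.18, limma). CCL7, the gene between CCL2 and CCL8, ranged from -7.76 to 1.19 in tumours and was -5.94 and -4.11 in healthy glands. Benign tumour 3, which had the second highest CCL2 and CCL8, had the lowest CCL7 at -7.76. Of 9 other chemokine receptors, 2 carried a symbol and 1 was tested, CX3CR1, at 0.95. CX3CR1 was well above background on 0 healthy arrays, so its value is no support for a difference.

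Among the cytokines that induce chemokines, and their receptors, 16 of 27 carried a symbol, 15 were tested and 0 were called. At an unadjusted p of at most 0.05, 4 of 15 were higher in all tumours by limma, beside 3.01% of all probes. These were IL1A, CD40, IL13 and IL18, with log2 fold changes of 3.44, 2.46, 1.94 and 1.77. IL1A and IL13 were well above background on 0 healthy arrays, and on 12 and 8 arrays in all. They entered the test through tumour arrays alone, so the count is no support for a difference in them. IL6 had 2.53 (unadjusted p = 0.0818 by limma), and TNF had -0.12. IL1A, which drives CXCL8 and CCL2 in many cell types, had its highest level of 2.15 in benign tumour 3. The median of the 15, which include IL1A and IL13, was 0.90 for all tumours and 2.01 for benign tumours.

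Of the sensors and transcription factors, 9 of 25 carried a symbol and 0 were called, with 3 of 9 higher in all tumours at an unadjusted p of at most 0.05 by limma (3.01% of all probes). These were TLR2, a receptor of bacterial lipoproteins (log2 fold change 3.04), TLR1, its partner (2.20), and HIF1A, of the response to low oxygen (1.29), and the median of the 9 was 0.66. Of the interferon response genes, 7 of 17 carried a symbol and 0 were called, with OAS2 (2.26) and OAS3 (1.16), 2 of 7, higher at an unadjusted p of at most 0.05 by limma (3.01% of all probes) and a median of 1.16. The others with the largest differences were PSMB8 (1.31) and MX1 (1.30). Of thrombin and its receptors, 2 of 7 carried a symbol, F2RL1 (0.39) and THBD (0.09), and 0 were called, with a median of 0.24. F2RL1 was well above background on 0 healthy arrays.

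The genes of leukocytes were set beside the chemokines, since these proteins both attract and come from such cells. Of 15 macrophage and monocyte genes, 4 carried a symbol. FCGR1A, an Fc receptor of macrophages, was called higher by limma in benign tumours (log2 fold change 4.04, adjusted p = 0.0208) and in all tumours (3.14, adjusted p = 0.0368). Over all probes, 0.379% and 0.442% were called in these comparisons, in either direction. In each of them, 1 of 35310 probes was called higher. SLC11A1 and TYROBP had 2.92 and 2.48 in all tumours (unadjusted p = 0.0012 and 0.00649, limma). In 3 of the 4 genes all tumours were above both glands, where 2.72% of all probes were, and CD163 overlapped. The summed level of the 4 genes was 3.83 to 5.73 in malignant and 5.14 to 6.30 in benign tumours. It was 1.41 and 3.82 in healthy glands, and malignant tumour 2 (3.833) was close to healthy gland 2 (3.817). The summed level was highest in benign tumour 3 at 6.30 and was 5.73 in malignant tumour 5, which had the lowest CCL2 and CCL8 of the tumours. The order of the groups was not particular to macrophage genes. The summed dendritic cell genes were at 1.16 to 3.09 in malignant tumours, 2.78 to 3.55 in benign tumours and -0.67 and 1.01 in healthy glands. The part of macrophages and monocytes in the chemokine levels was not tested.

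Of 8 neutrophil genes, 4 carried a symbol and 0 were called. S100A8, a calcium-binding protein of neutrophils and monocytes, had a log2 fold change of 4.24 in all tumours (unadjusted p = 0.0133, adjusted p = 0.533 by limma), LTF had 1.53, CXCR2 had 1.02 and ELANE had -0.65, with a median of 1.27. Their summed level was 1.67 to 7.92 in malignant tumours, 5.76 to 8.46 in benign tumours and 0.43 and 3.77 in healthy glands. This sum mostly follows its brightest probes, such as S100A8 in malignant tumour 4 (7.84) and LTF in healthy gland 2 (3.38). Of 9 dendritic cell genes, 5 carried a symbol, 4 were tested and 0 were called, with CD86 at 2.70 (unadjusted p = 0.00138 by limma), CD80 at 1.60 and FLT3 at 0.52. Their summed level was 1.16 to 3.55 in tumours and -0.67 and 1.01 in healthy glands. The part of neutrophils and dendritic cells in the chemokine levels was not tested.

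Of 14 T cell genes, 5 carried a symbol and 0 were called. None had an unadjusted p of at most 0.05 in all tumours by limma. The log2 fold changes in all tumours were 1.90 for CD28, 1.71 for CTLA4, 1.14 for ICOS, 0.79 for CD8A and -0.13 for CD4. The median was 1.14, the value of ICOS. CD28 and ICOS were well above background on 0 healthy arrays and entered the test through tumour arrays alone. The values of these genes and the median are thus no support for a difference. The summed level of the 5 T cell genes was -1.78 to 0.68 in tumours and -2.16 and -1.46 in healthy glands. It was highest in benign tumour 3 (0.68) and malignant tumour 1 (0.18), the tissues with the highest CXCL10. This order was not particular to T cell genes. The summed dendritic cell genes (3.55 and 3.09) and inducing cytokines with their receptors (4.39 and 3.86) were highest in the same tissues. Of 7 B cell genes, 3 carried a symbol, 0 were called and 0 had such a p, with 1.21 for CD38, -0.55 for MS4A1 and 0.44 for CD79A.

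In the lists of other mammary cells, limma called 0 genes in any comparison, and 0 had an unadjusted p of at most 0.05 in all tumours. Of 12 mammary epithelium genes, 6 carried a symbol, with a median log2 fold change of -0.23 in all tumours and the largest values in PGR (-1.26), KRT19 (-0.61) and ESR1 (0.53). The medians were 0.03 for 3 of 7 adipose genes (PPARG 0.84, LEP -0.70, ADIPOQ 0.03), 0.44 for 2 of 6 milk protein genes (CSN2 0.95, LALBA -0.07), -0.39 for 5 of 8 endothelium genes (SELE 1.79, VWF -1.30, ICAM1 -1.15) and 1.24 for 5 of 7 fibroblast genes (THY1 1.62, COL1A1 1.57, COL1A2 1.24). In the pancreas lists the called genes were CPB1 (-13.34), REG3A (-13.29), PNLIPRP1 (-11.19), CLPS (-11.06), PLA2G1B (-9.94), INS (-10.70), SST (-10.17), IAPP (-6.15) and PPY (-6.06).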

How the data were processed

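Total RNA of each tissue was labelled with Cy3 and hybridized to Agilent canine arrays (45220 spots, 1417 controls). The authors deposited scanner intensity values made with Agilent Feature Extraction 11.5.1.1, per the labels, and a table of signals of all 22 arrays. The processed signal intensity that the authors deposited has the background taken off. The table equals the median signal intensity of every spot on all 19 arrays with scanner values, with no background taken off. The mark of spots well above background was also deposited.

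Levels are log2 processed signals less the 75th percentile of their array, averaged over the arrays of a tissue. The labels call these arrays duplicates, and malignant tumour 5 had 1. Of 43603 probes, 35310 passed the background mark on 4 or more arrays and entered 1 model with 3 group means (limma 3.58.1, R 4.3.3, the package data.table in version 1.17.8), with Benjamini-Hochberg adjustment over all of them and a threshold of 0.05. All 9 probes of the 5 genes passed. A gene was represented by its brightest probe. Exact permutation tests over tissues were 2-sided, 1 for each gene and comparison and not adjusted, and correlations had 2-sided permutation tests, of 100000 resamples over 10 tissues and exact over 8 (scipy 1.17.1 and numpy 2.4.6). The fit was also run on simulated data with independent noise of equal spread in all groups. That run does not show how the fit behaves in these tissues. The limma p-values set a group difference against a spread between tissues that the 3 groups share. The spread of healthy tissue itself rests on 2 glands.

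The members and lists were chosen with earlier results of these data known. The text names every member, every receptor except 1 list entry that is not reported here, the called genes of each other list or otherwise its 3 genes with the largest difference in all tumours, and the 3 genes most like each member. TNF, CCL7, CD163, ELANE, CD4, CD8A, IL13, IL18 and OAS3 were named after their values were seen. Symbols came from RefSeq transcripts (assembly UU_Cfam_GSD_1.0), which named 2353 probes. Genes without such a pairing were not analysed here, and coordinates are left out since the array was mapped to another build. Alternatives covered background correction, normalization, filters, probes, arrays, slides, the table of signals, the methods' t-test and leaving out each tissue. The methods name a paired t-test. It was run here unpaired over tissues, since tumours and healthy tissue came from different dogs, so it is not a rerun of that test.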

Additional observations from a re-analysis of the deposited data

How the results depend on the processing

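The differences from healthy tissue kept their sign in CCL2, CCL8, CCL17 and CXCL8 under every alternative run, while other values reversed as follows. CXCL10 in malignant against healthy tissue was -0.73 without malignant tumour 1, -0.14 without malignant tumour 2 and -0.44 without healthy gland 1, and 1.66 without healthy gland 2, the highest value with a tissue left out. It was 2.87 with the replicate block and 1.75 with slide as a fixed term. CCL17 in malignant against benign tumours was 0.35 without benign tumour 2 and -1.89 without benign tumour 1. The correlation of CCL17 with CXCL10 was 0.013 without malignant tumour 5 and -0.408 without healthy gland 1. The cause was not tested.

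The number of chemokines called was 0 in the fit over tissues. For malignant against healthy tissue it was 1 with each array as an independent sample, 2 with slide as a random block over arrays and 2 with the methods' t-test without adjustment (0 for malignant against benign tumours in all 3). For benign against healthy tissue it was 4, 4 and 2 in the same settings, and 1 (CCL8) with slide as a fixed term and tissue as a random block, which was chosen after seeing the data. For all tumours it was 4, 4 and 3. The first 2 settings count the arrays of a tissue separately, and called 1540 and 1548 probes in malignant tumours where the fit over tissues called 147. The within-tissue correlation was 0.967 and the within-slide correlation -0.02. Leaving out a tumour gave 0 to 1 called in benign tumours and in all tumours, with CXCL8 called without benign tumour 1. Calls without a healthy gland are not given, since a single gland then remains. With the methods' t-test, run here unpaired, and Benjamini-Hochberg or Storey correction, 0 were called.

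The number of related pairs was 5 of 10, 1 in tumours alone, 3 with normexp, 3 in the table of signals, and 3 to 6 when a tissue was left out (3 without benign tumour 2, healthy gland 1 or healthy gland 2). The normexp correction, run on median signals, moved the median log2 fold change of all probes to -0.20, -0.49 and -0.34 in malignant, benign and all tumours against healthy tissue, and the table of signals to -0.15, -0.36 and -0.25. The numbers of the tissues do not pair dogs: deviations of same-numbered tissues correlated at -0.17 to 0.11, and the replicate block called 0 chemokines, with 3.78 for CCL2 in all tumours. Over all probes, 147, 134, 0 and 156 were called for malignant, benign, malignant against benign and all tumours. For probes well above background on every array it was 47, 41, 0 and 49, and with 1 probe a gene 88, 81, 0 and 95. CCL17 and CXCL10 were not in the filter on every array. With each array independent, 2506, 48 and 2658 were called in the other 3 comparisons, and with slide as a random block 2563, 44 and 2726. The fit of only the groups compared called 37 in benign tumours, the replicate block 89, 85 and 105, and the methods' t-test 32, 0, 0 and 104 with Benjamini-Hochberg and 32, 0, 0 and 105 with the Storey correction.

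Precision is limited by the 2 healthy glands and by signals near background in CCL17 and CXCL10.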
